A study of Arabidopsis thaliana with 24 samples.

Results

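The AG clade of MADS-box genes in Arabidopsis thaliana comprises AGAMOUS (AG, AT4G18960), SHATTERPROOF1 (SHP1, AT3G58780), SHATTERPROOF2 (SHP2, AT2G42830) and SEEDSTICK (STK, AT4G09960). The 4 genes were found by their gene identifiers in a deposited table of 34178 lines, in which each had 1 line. Transcripts were measured by strand-specific single-end RNA-seq in WT (Col-0) plants and in plants of clf-28, a mutant of CURLY LEAF (CLF) in the Col-0 background. Both genotypes grew in long days. Roots and shoots (aerial parts) were taken at 2 weeks from plates with MS medium, and inflorescences and siliques at 5 weeks from soil, so tissue, age and growth medium cannot be told apart between these pairs of tissues. Each of the 8 groups held 3 libraries. The number of plants behind a library is not given in the sources used here, and the replicates of a group measure the spread between such libraries. Values are FPKM, fragments scaled to transcript length and to the mapped fragments of the library, so levels of different genes are compared per length.

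MADS-domain proteins of floral organs bind DNA as dimers and act in complexes of 4 proteins with SEPALLATA partners. AG specifies stamens and carpels and ends the activity of the floral meristem, SHP1 and SHP2 act redundantly in the fruit valve margin and in carpels and ovules, and STK specifies ovules and acts in the seed coat and in seed release. CLF is a histone methyltransferase of Polycomb repressive complex 2, which places the repressive mark H3K27me3, and AG is a classical target that this complex keeps silent in leaves. The large second intron of AG carries regulatory sequence read by activators and repressors.

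In the TAIR10.1 genome AG lies on chromosome 4 from 10382856 to 10388539 (plus strand), SHP1 on chromosome 3 from 21738160 to 21742517 (plus strand), SHP2 on chromosome 2 from 17820114 to 17824013 (plus strand) and STK on chromosome 4 from 6236375 to 6241281 (minus strand). The deposited loci, in TAIR10 coordinates, were 10382856 to 10388539 for AG, 21738460 to 21746545 for SHP1, 17820255 to 17824906 for SHP2 and 6236375 to 6240932 for STK. In the longest annotated transcript of each gene the largest intron was intron 2. It measured 2835 bases in AG, 2056 in SHP2, 1577 in STK and 889 in SHP1.

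The stretch shown first is the part of AG intron 2, from chr4:10386519-10386715 on the plus strand, that holds a CArG box, the site type that MADS-domain proteins bind, and 3 further motifs. Capitals mark, from left to right, that CArG box, CCAATGT (a form of the CCANTG site of the floral activator LEAFY), TTAATGG (the site type of the stem cell regulator WUSCHEL) and AAACCCTA (a telobox, bound by telomere repeat binding factors that associate with Polycomb repressive complex 2). CCAATGT is by its letters also a match of CCANTG, and overlapping CCANTG matches on both strands, in ccaatgg, are left in lower case.
AG intron 2: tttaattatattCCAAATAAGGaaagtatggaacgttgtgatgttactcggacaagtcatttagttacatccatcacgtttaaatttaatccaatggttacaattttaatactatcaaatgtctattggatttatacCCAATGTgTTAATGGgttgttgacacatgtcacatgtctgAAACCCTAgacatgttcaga
Each motif was searched on both strands. Cut into 11 adjoining windows of 250 bases, AG intron 2 had 1 window with a CArG box, a motif found in 1.72% of the 24897 such windows in introns of all genes. Of the same 11 windows 2 held CCAATGT (2.86% of all windows), 1 held TTAATGG (4.35%), 2 held AAACCCTA (4.26%), 4 held CCANTG (22.3%) and 4 held GAGAGA (16.1%), the repeat bound by BASIC PENTACYSTEINE proteins. AAACCCTA was also found in 2 of 3 windows of SHP1 intron 2 and in 1 of 8 windows of SHP2 intron 2, and in none of the 6 windows of STK intron 2. None of these 3 other introns held a CArG box, CCAATGT or TTAATGG, and over its whole length SHP1 intron 2 held 3 GAGAGA matches and those of SHP2 and STK 1 each. These are matches of letters only.

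The 250 bases before the annotated start of each gene are shown next. Capitals mark GAGAGA or its reverse complement, the only searched motif found in these windows. The windows are chr4:10382606-10382855 (plus strand) for AG, chr3:21737910-21738159 (plus strand) for SHP1, chr2:17819864-17820113 (plus strand) for SHP2 and chr4:6241282-6241531 (minus strand) for STK. The genome and annotation are RefSeq's TAIR10.1.
AG upstream: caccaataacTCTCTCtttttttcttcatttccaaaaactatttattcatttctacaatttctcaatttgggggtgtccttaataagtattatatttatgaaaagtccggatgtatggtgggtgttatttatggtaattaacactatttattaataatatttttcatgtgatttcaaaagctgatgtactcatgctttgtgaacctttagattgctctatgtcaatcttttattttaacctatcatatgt
SHP1 upstream: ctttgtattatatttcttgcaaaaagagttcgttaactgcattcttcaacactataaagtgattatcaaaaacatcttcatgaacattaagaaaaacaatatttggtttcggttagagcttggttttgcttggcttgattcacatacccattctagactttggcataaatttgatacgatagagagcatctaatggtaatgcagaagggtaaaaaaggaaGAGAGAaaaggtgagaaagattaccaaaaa
SHP2 upstream: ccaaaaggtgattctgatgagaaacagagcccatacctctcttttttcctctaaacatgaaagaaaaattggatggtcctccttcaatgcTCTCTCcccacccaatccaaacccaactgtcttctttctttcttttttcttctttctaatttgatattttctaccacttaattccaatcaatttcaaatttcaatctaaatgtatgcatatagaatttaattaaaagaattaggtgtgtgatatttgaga
STK upstream: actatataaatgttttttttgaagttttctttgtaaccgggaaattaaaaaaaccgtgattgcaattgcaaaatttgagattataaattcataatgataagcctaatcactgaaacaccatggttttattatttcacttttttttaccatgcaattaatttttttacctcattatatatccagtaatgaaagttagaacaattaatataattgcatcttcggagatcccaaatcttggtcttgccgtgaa
AG, SHP1 and SHP2 each had 1 GAGAGA match and STK none, and 20.6% of 27438 windows of this kind held one. AG and SHP2 were called higher in mutant roots and shoots and SHP1 and STK were not. In roots, though, the log2 difference of SHP1 (0.72) was above that of SHP2 (0.64). A link between the motif and these levels was not tested. No window held a CArG box (2.52% of all windows), AAACCCTA (4.49%), CCANTG (20.8%), CCAATGT (2.8%) or TTAATGG (6.99%).

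The results rest on 22 of the 24 libraries. A library of clf-28 shoots and a library of clf-28 siliques, replicate 3 in both groups, went against their labels and were left out, which leaves these groups with 2 libraries each. STK stood at 100 FPKM in the library labelled clf-28 shoots replicate 3, against 0.465 and 0.844 in the other clf-28 shoots. Its level was 0.463 FPKM where the label read clf-28 siliques replicate 3, against 117 and 95.2 in the other clf-28 siliques. The summed level of 4 seed coat markers was 0.752 FPKM in that library and 358 and 374 in the others of its group. Embryo and maturation markers summed to 65860 FPKM in the library labelled clf-28 shoots replicate 3, against 112 and 240 in the other clf-28 shoots. In that labelled clf-28 siliques replicate 3 they summed to 183, against 61360 and 65740 in the other clf-28 siliques. The 2 libraries thus matched each other's tissue, and they were not reassigned. Among the libraries used, WT siliques replicate 1 stood apart from the rest of its group. The summed level of 6 embryo and maturation markers was 14070 FPKM in it and 43.9 and 44.8 in WT siliques replicates 2 and 3.

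In WT, AG clade transcripts were abundant in inflorescences and siliques and near 0 in roots and shoots. Summed over the 4 genes, the level was 153 to 176 FPKM in WT inflorescences, 286 to 421 in WT siliques, 1.12 to 1.51 in WT shoots and 0.229 to 0.987 in WT roots. AG had its highest WT level in inflorescences, at 61.5, 64.8 and 72.4 FPKM. WT siliques had 28.1, 55.4 and 56.4 FPKM of AG, WT shoots 0.174, 0.408 and 0.364, and WT roots 0, 0.0944 and 0.0605. The inflorescence and silique libraries did not overlap with each other or with the roots and shoots. SHP1, SHP2 and STK were instead highest in siliques. SHP1 stood at 47.4, 72.5 and 77.4 FPKM in WT siliques and at 44.3, 20.3 and 18.6 in WT inflorescences. SHP2 stood at 68.6, 70.9 and 76.1 FPKM in WT siliques and at 18.6, 21.8 and 21.5 in WT inflorescences. STK had the highest level of the 4 genes in WT siliques, at 142, 186 and 211 FPKM, and lay below AG in WT inflorescences, at 52.0, 46.0 and 50.7. In WT roots SHP1 ranged from 0.0990 to 0.445 FPKM, SHP2 from 0.0505 to 0.168 and STK from 0.0793 to 0.307. In WT shoots SHP1 ranged from 0.438 to 0.474 FPKM, SHP2 from 0.223 to 0.480 and STK from 0.0258 to 0.378.

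**Figure D1:**
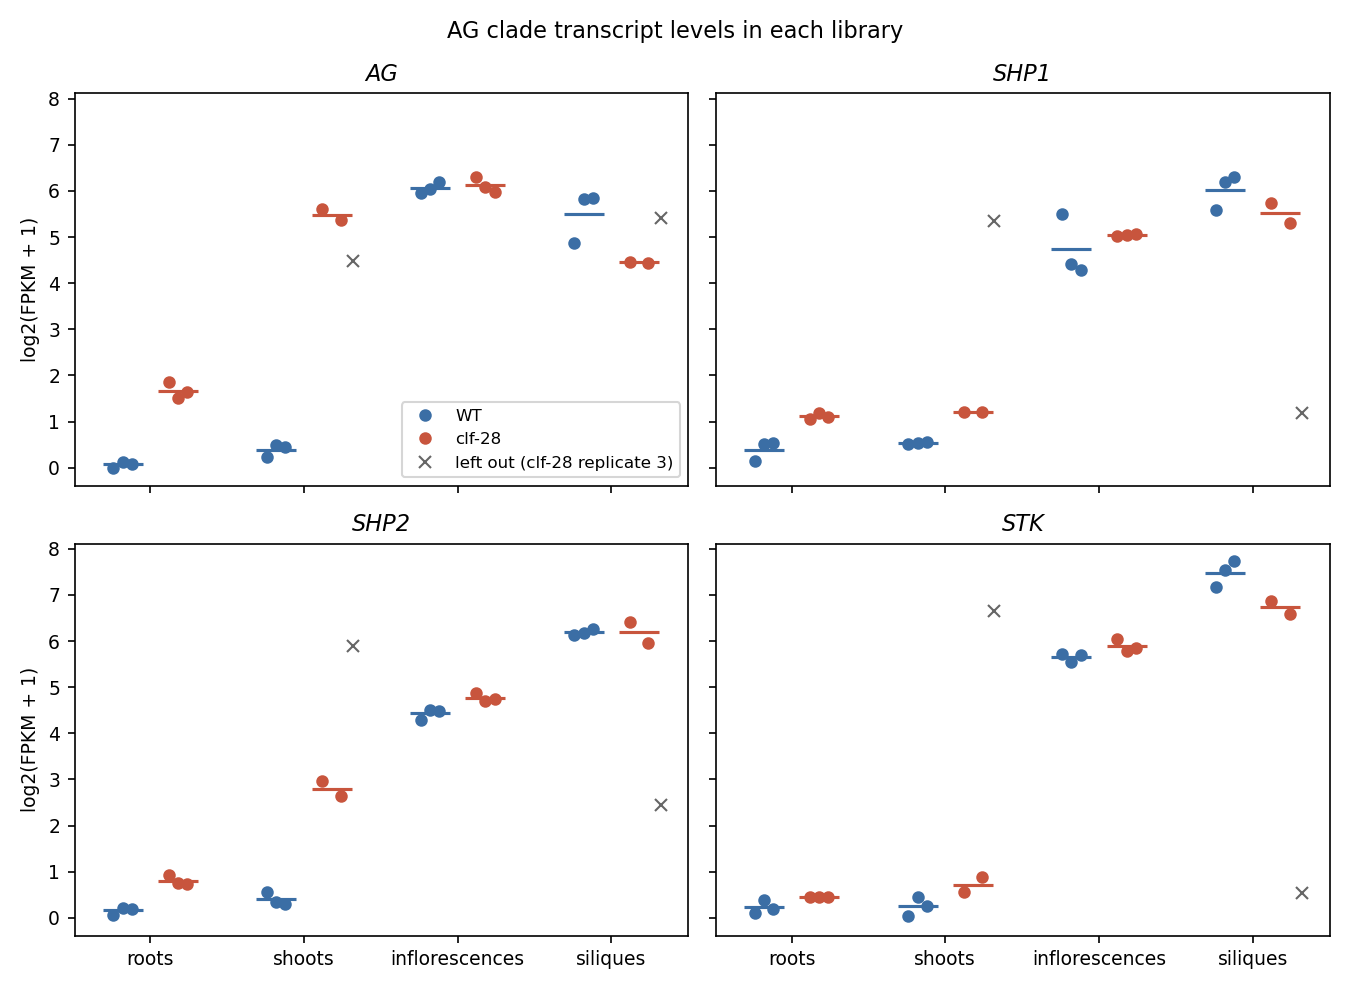
Transcript level of each AG clade gene, as log2(FPKM + 1) on the y axis, in every library of the 4 tissues on the x axis, with WT in blue and clf-28 in red, group means as lines, and the 2 libraries left out as crosses. In shoots the 2 clf-28 libraries of AG sit at 40.0 and 48.0 FPKM, above all 3 WT libraries at 0.174 to 0.408, while in inflorescences the genotypes overlap.

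Levels were compared with limma on log2(FPKM + 1) across 24278 genes, and a gene was called where the p-value adjusted over all of them was under 0.05. Over the 6 pairs of WT tissues, 20 of 24 combinations of gene and pair were called. The 4 that were not were those of shoots against roots, with a log2 difference of 0.32 for AG (95% interval -0.09 to 0.73), 0.15 for SHP1 (-0.36 to 0.67), 0.24 for SHP2 (-0.03 to 0.51) and 0.02 for STK (-0.30 to 0.34). For AG this difference was called without WT siliques replicate 1 (0.32, adjusted p = 0.0247), with quantile normalization (0.55, adjusted p = 0.0415) and with a pseudocount of 0.1 FPKM (1.46, adjusted p = 0.000268), and the last setting also called SHP2 (0.94, adjusted p = 0.00207). Of all genes tested, 54.5% were called between WT shoots and roots, 63.3% between inflorescences and roots, 62.1% between siliques and roots, 53.7% between inflorescences and shoots, 52.3% between siliques and shoots and 40.6% between siliques and inflorescences. A call between tissues was thus common. The largest difference of a member between WT tissues was that of STK between siliques and roots, at 7.25 (SE 0.15). From inflorescences to siliques SHP1 rose by 1.29, SHP2 by 1.76 and STK by 1.82, while AG fell by 0.56 (adjusted p = 0.0292). None of these 4 differences was called with all 24 libraries (adjusted p = 0.374 for SHP1, 0.108 for SHP2, 0.37 for STK and 0.176 for AG). The fall of AG was not called without WT siliques replicate 1 (-0.24, adjusted p = 0.153), WT inflorescences replicate 2 (-0.57, 0.0585) or WT inflorescences replicate 3 (-0.50, 0.0917). Median-of-ratios scaling (-0.50, adjusted p = 0.076) and a pseudocount of 0.1 FPKM (-0.57, adjusted p = 0.121) also ended the call.

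In clf-28 shoots, AG rose to a level within its WT silique range and below every inflorescence library, and SHP2 rose with it. AG stood at 48.0 and 40.0 FPKM in clf-28 shoots, against 0.174, 0.408 and 0.364 in WT shoots. Both mutant libraries lay above all WT shoots, and the ratio of the group means was 140. The log2 difference was 5.10 (SE 0.22, limma adjusted p = 2.96e-10). SHP2 was 6.78 and 5.26 FPKM in clf-28 shoots and 0.480, 0.264 and 0.223 in WT shoots, again without overlap. Its log2 difference was 2.40 (SE 0.14, limma adjusted p = 1.54e-08), with a ratio of group means of 18.7. In these bulk tissue samples more cells that hold a transcript and more RNA per cell cannot be told apart, and likewise fewer cells and less RNA. The 6 embryo and maturation markers moved with genotype in the same libraries, at 112 and 240 FPKM in clf-28 shoots and 1.74 to 5.02 in WT shoots. In inflorescences, where no AG clade gene was called, they were also higher, at 80.6 to 170 FPKM in clf-28 and 4.68 to 9.69 in WT. Among clf-28 libraries the sums also ran in the same order of replicate numbers. From replicate 1 to 3 they were 91.0, 179 and 128 FPKM in roots and 80.6, 170 and 125.5 in inflorescences. What this shared order reflects was not tested, and it cannot be told apart from genotype here. The part of these markers in the AG and SHP2 values was not tested.

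SHP1 and STK were not called in shoots, although neither overlapped between genotypes. The mutant libraries lay above all WT libraries for 29.0% of all genes in shoots, so that the lack of overlap of all 4 members is read against that share. SHP1 was 1.302 and 1.309 FPKM in clf-28 shoots and 0.438, 0.459 and 0.474 in WT shoots. Its log2 difference was 0.66 (95% interval 0.09 to 1.24, limma adjusted p = 0.147). STK was 0.465 and 0.844 FPKM in clf-28 shoots and 0.0258, 0.378 and 0.196 in WT shoots, a log2 difference of 0.46 (95% interval 0.11 to 0.82, adjusted p = 0.092). Thus 2 of the 4 genes were called higher in shoots, where 6.40% of all genes tested were. With a pseudocount of 0.1 FPKM all 4 were called, with SHP1 at 1.34 (adjusted p = 0.0326) and STK at 1.48 (adjusted p = 0.0273), and SHP1 was also called in the shoot libraries alone (adjusted p = 0.0088) and without the 4 WT libraries of replicate 1 (0.65, adjusted p = 0.000755). With all 24 libraries AG differed by 4.76 and SHP2 by 3.44 (adjusted p = 0.0124), and both stayed called.

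AG and SHP2 were also called higher in clf-28 roots, at far lower levels. AG was 2.62, 1.85 and 2.12 FPKM in clf-28 roots and 0, 0.0944 and 0.0605 in WT roots. All mutant roots lay above all WT roots, with a log2 difference of 1.60 (SE 0.19, limma adjusted p = 2.69e-05). SHP2 was 0.899, 0.689 and 0.651 FPKM in clf-28 roots and 0.0505, 0.168 and 0.141 in WT roots, a log2 difference of 0.64 (SE 0.13, adjusted p = 0.00309). SHP1, at 1.09, 1.27 and 1.13 FPKM in the mutant and 0.0990, 0.418 and 0.445 in WT, was not called (0.72, 95% interval 0.21 to 1.24, adjusted p = 0.0812). Its log2 difference was above that of SHP2, with a wider interval, and the 2 genes were not tested against each other. STK, at 0.369, 0.363 and 0.376 FPKM in the mutant and 0.0793, 0.307 and 0.150 in WT, was not called either (0.22, 95% interval -0.09 to 0.54, adjusted p = 0.475). The embryo and maturation markers summed to 91.0 to 179 FPKM in clf-28 roots and 0.618 to 2.70 in WT roots, and their part in these values was not tested. All 4 genes lay higher in the mutant roots without overlap, as 17.8% of all genes did, and 2 of 4 were called higher, where 6.26% of all genes tested were. With a pseudocount of 5 FPKM neither AG (0.51, adjusted p = 0.0688) nor SHP2 (0.17, adjusted p = 0.367) was called, and with all 24 libraries SHP2 was not (adjusted p = 0.953). SHP1 was called with a pseudocount of 0.1 FPKM (1.72, adjusted p = 0.00363), in the root libraries alone (adjusted p = 0.0221) and without the 4 WT libraries of replicate 1 (0.60, adjusted p = 0.000628).

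In inflorescences no AG clade gene was called between the genotypes. AG stood at 77.9, 66.8 and 62.3 FPKM in clf-28 inflorescences and at 61.5, 64.8 and 72.4 in WT. The groups overlapped, and the log2 difference was 0.06 (95% interval -0.36 to 0.47, limma adjusted p = 0.965). SHP1 was 31.3, 31.8 and 32.4 FPKM in the mutant and 44.3, 20.3 and 18.6 in WT, so the 3 mutant libraries lay within the WT range (0.30, 95% interval -0.21 to 0.82, adjusted p = 0.621). SHP2 was 28.3, 25.1 and 25.6 FPKM in the mutant and 18.6, 21.8 and 21.5 in WT (0.34, 95% interval 0.07 to 0.61, adjusted p = 0.166). STK was 65.0, 53.9 and 56.2 FPKM in the mutant and 52.0, 46.0 and 50.7 in WT (0.23, 95% interval -0.09 to 0.54, adjusted p = 0.5). SHP2 and STK did not overlap between genotypes, with the mutant higher, as for 7.90% of all genes. The count of 0 of 4 compares with 3.93% of all genes tested called in either direction, and 1 of the 4, SHP2, had an unadjusted p under 0.05 (0.0163). Without WT inflorescences replicate 1, which had the highest SHP1 level, SHP1 was called higher (0.68, adjusted p = 0.0204). In that library 6 carpel and ovule markers summed to 112 FPKM, against 70.5 and 70.9 in the other WT inflorescences and 60.7 to 62.0 in clf-28, and the part of this in the SHP1 value was not tested.

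In siliques AG and STK fell in the mutant, while SHP2 lay on both sides of its WT values. AG was 20.9 and 20.8 FPKM in clf-28 siliques and 28.1, 55.4 and 56.4 in WT siliques. Both mutant libraries lay below all WT libraries, and the log2 difference was -1.06 (SE 0.22, limma adjusted p = 0.00151). STK was 117 and 95.2 FPKM in clf-28 siliques and 142, 186 and 211 in WT, also without overlap (-0.75, SE 0.17, adjusted p = 0.00278). SHP1 was 52.3 and 38.8 FPKM in the mutant and 47.4, 72.5 and 77.4 in WT (-0.50, 95% interval -1.08 to 0.07, adjusted p = 0.192), and was called lower without the 4 WT libraries of replicate 1 (-0.72, adjusted p = 0.000103). SHP2 was 84.5 and 61.3 FPKM in the mutant, on both sides of the WT values of 68.6, 70.9 and 76.1 (0.00, 95% interval -0.30 to 0.30), and with all 24 libraries it differed by -1.25 (adjusted p = 0.298). Of the 4 genes 2 were called lower, where 16.4% of all genes tested were, and the same 2 lay below WT without overlap, where 29.0% of all genes did. STK was not called without clf-28 siliques replicate 2 (-0.60, adjusted p = 0.0548) or with a pseudocount of 0.1 FPKM (-0.75, adjusted p = 0.193), and neither gene was called in the silique libraries alone (AG adjusted p = 0.13, STK adjusted p = 0.114) or with all 24 libraries (AG -0.73, adjusted p = 0.0959; STK -2.81, adjusted p = 0.174). Markers of several cell types moved with these values. The 4 seed coat markers summed to 358 and 374 FPKM in clf-28 siliques and 478, 925 and 845 in WT, and 3 endosperm markers to 9.19 and 9.21 against 21.8 to 33.9. Most of the seed coat sum was BAN, on average 338 FPKM in clf-28 siliques and 668 in WT. BAN and TT16 of the seed coat list are also counted among the targets and partners below. The 6 embryo and maturation markers summed to 61360 and 65740 FPKM in clf-28 siliques, against 14070, 43.9 and 44.8 in WT. The carpel and ovule markers summed to 25.8 and 29.2 FPKM against 13.6 to 21.1, and 2 markers of green tissue to 6694 and 7998 against 12200 to 23680. Most of the carpel and ovule sum was SPT, a carpel gene, on average 23.8 FPKM in clf-28 siliques and 9.22 in WT. The rest of that sum was on average lower in clf-28 siliques than in WT. The part of these differences in the AG and STK values was not tested.

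**Figure D2:**
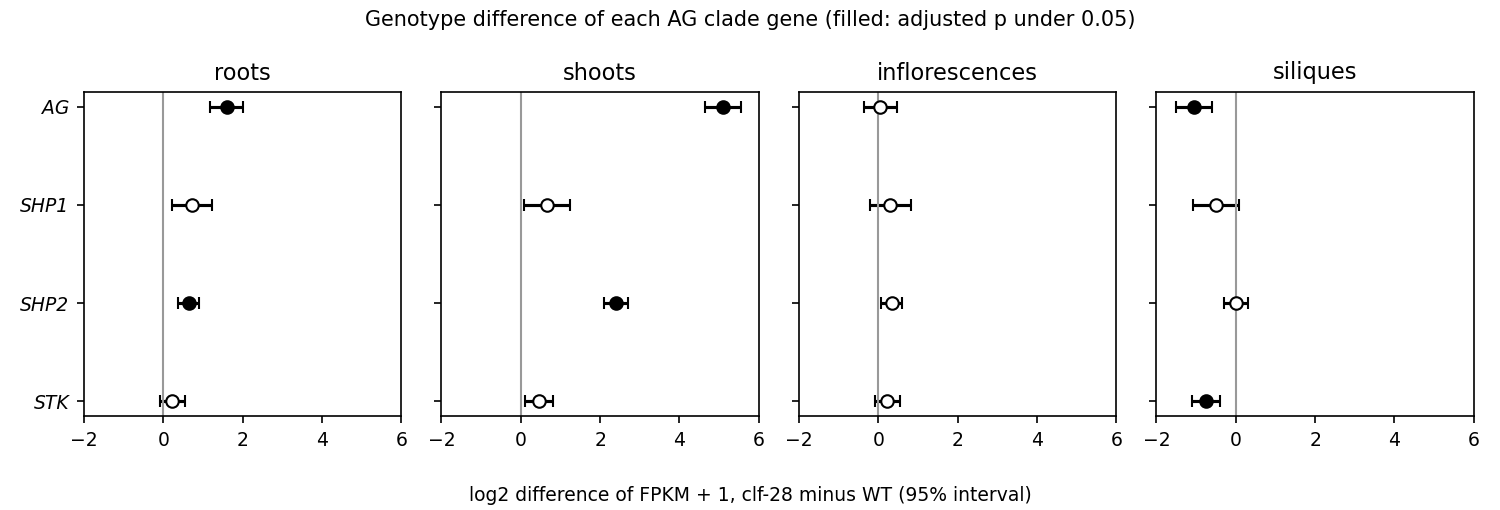
Difference of log2(FPKM + 1) between clf-28 and WT on the x axis for each AG clade gene in the 4 tissues, with 95% intervals, and filled points where the limma adjusted p was under 0.05. AG and SHP2 are filled on the right in roots and shoots, no gene is filled in inflorescences, and AG and STK are filled on the left in siliques.

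The genotype difference was tested between tissues for each gene. The interaction F test called AG (adjusted p = 5.79e-09), SHP2 (adjusted p = 1.85e-06) and STK (adjusted p = 0.00392) and did not call SHP1 (adjusted p = 0.0616). These 3 of 4 compare with 26.4% of all genes tested, and with all 24 libraries STK was not called (adjusted p = 0.287). The difference of AG was larger in shoots than in roots by 3.50 and larger in shoots than in siliques by 6.15 on the log2 scale. That of SHP2 was larger in shoots than in roots by 1.76. The 1 FPKM added before the log understates the change at the low root levels. Ratios of group means were 42.6 in roots and 140 in shoots for AG, and 6.23 and 18.7 for SHP2. Between shoots and roots, 2 members differed in their genotype difference, AG and SHP2, where 4.52% of all genes did. Between inflorescences and roots 1 differed, AG, with 6.33% of all genes, and between inflorescences and shoots 2, AG and SHP2, with 4.98%. Between siliques and roots, and between siliques and shoots, all 4 differed, with 20.1% and 17.6% of all genes. Between siliques and inflorescences AG and STK differed, with 18.3% of all genes.

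Many of these differences between tissues depended on the processing or on the 2 libraries left out. Fits with all 24 libraries place those 2 in groups whose tissue they do not match. The use of all 24 libraries ended the calls for SHP2 in shoots against roots (adjusted p = 0.287) and in inflorescences against shoots (0.197), for AG in inflorescences against roots (0.0552), for SHP1, SHP2 and STK in siliques against roots (0.29, 0.363 and 0.418), for SHP1 and STK in siliques against shoots (0.0777 and 0.0967), and for AG and STK in siliques against inflorescences (0.335 and 0.451). A pseudocount of 0.1 FPKM ended the calls of AG and STK between siliques and inflorescences (adjusted p = 0.0817 and 0.257) and of STK between siliques and roots (0.0601), and added SHP2 between inflorescences and roots (-1.62, adjusted p = 0.00736). A pseudocount of 5 FPKM ended those of AG between inflorescences and roots (-0.46, adjusted p = 0.311) and of SHP1 and SHP2 between siliques and roots (0.145 and 0.494). Quantile normalization also ended the calls of SHP1 and SHP2 between siliques and roots (adjusted p = 0.0624 and 0.231). The SHP1 difference between siliques and shoots was not called with a pseudocount of 5 FPKM, no filter, median-of-ratios scaling, quantile normalization or the replicate block (adjusted p from 0.0543 to 0.19). The SHP1 difference between siliques and shoots (-1.17, adjusted p = 0.0461) was not called in 17 of 22 fits that left out 1 library each (values from -1.38 to -0.95), all but those without replicate 1 of WT roots or WT siliques or without a WT inflorescence library, and that between siliques and roots (-1.23, adjusted p = 0.025) in 5. Those 5 left out WT roots replicate 1, clf-28 roots replicate 2, WT siliques replicate 2 or 3, or clf-28 siliques replicate 2, with values from -1.19 to -1.02. The SHP2 difference between siliques and roots (-0.64, adjusted p = 0.0259) was not called without WT siliques replicate 3, clf-28 roots replicate 1 or clf-28 siliques replicate 2 (-0.60, -0.57 and -0.41). The interaction F test called SHP1 without WT inflorescences replicate 1 or 3 or WT siliques replicate 1 (adjusted p = 0.00251, 0.0393 and 0.0161). Without WT inflorescences replicate 1 or WT siliques replicate 1 the SHP1 difference between siliques and inflorescences was called as well (-1.19 and -1.02, adjusted p = 0.00316 and 0.0406).

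The order of tissues differed for AG between the genotypes. In clf-28 the order of AG was inflorescences, shoots, siliques and roots, whereas in WT it was inflorescences, siliques, shoots and roots. AG in clf-28 inflorescences exceeded that in clf-28 shoots by 0.64 (adjusted p = 0.0216). This was not called when clf-28 shoots replicate 2 (0.51, adjusted p = 0.169) or clf-28 inflorescences replicate 1 (0.55, adjusted p = 0.0719) was left out. Median-of-ratios scaling (0.52, adjusted p = 0.0876) and a pseudocount of 0.1 FPKM (0.65, adjusted p = 0.0978) also ended the call. AG in clf-28 siliques was below that in clf-28 shoots (-1.04, adjusted p = 0.00164, and -0.38, adjusted p = 0.803, with all 24 libraries), and AG in clf-28 shoots was above that in clf-28 roots by 3.82. Over the pairs of clf-28 tissues, 12 of 24 combinations were called with all 24 libraries. SHP1, SHP2 and STK kept siliques first and inflorescences second in clf-28, though SHP1 did not differ between these beyond its spread (0.49, 95% interval -0.09 to 1.07, adjusted p = 0.15), and was called between them without WT inflorescences replicate 1 (0.49, adjusted p = 0.0289). SHP1 (0.09) and STK (0.26) were also not called between clf-28 shoots and roots, whereas SHP2 rose by 2.00. Over the 6 pairs of clf-28 tissues 21 of 24 combinations were called with the 22 libraries. The share of all genes called was 53.0% for shoots against roots, 66.3% for inflorescences against roots, 58.9% for siliques against roots, 50.9% for inflorescences against shoots, 47.6% for siliques against shoots and 49.6% for siliques against inflorescences.

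The makeup of the clade differed by tissue and genotype. AG made up 84.4% and 84.9% of the summed FPKM of the 4 genes in clf-28 shoots, against 15.5% to 29.0% in WT shoots. The summed level was 47.4 and 56.5 FPKM in those mutant libraries. In clf-28 roots AG made up 44.4% to 52.6%, of a summed level of 4.17 to 4.98 FPKM, against 0% to 9.56% in WT roots, where values near 0 make the shares imprecise. In inflorescences the AG share was 34.9% to 44.4% in WT and 35.3% to 38.5% in clf-28, and the groups overlapped. In siliques STK made up the largest share, 48.3% to 50.1% in WT and 42.5% to 44.1% in clf-28. SHP2 made up 28.4% to 30.8% in clf-28 siliques and 18.1% to 23.96% in WT. The closely related pair SHP1 and SHP2 did not keep a fixed ratio. The log2 ratio of SHP1 to SHP2 was -2.38 and -2.01 in clf-28 shoots and -0.13 to 1.09 in WT shoots, while in inflorescences it was 0.15 to 0.34 in the mutant, within the WT range of -0.21 to 1.25. Reads that both genes share could be split between them by the quantification, whose handling is not given in the sources used here.

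**Figure D3:**
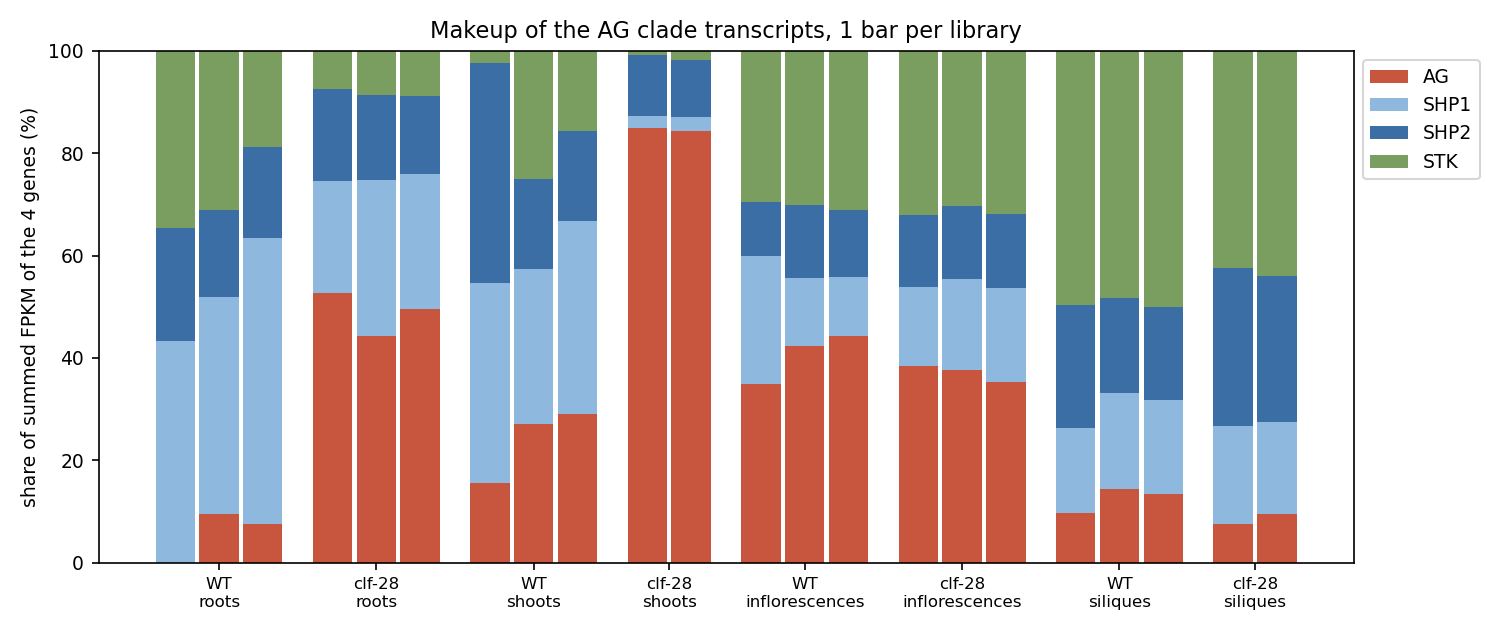
Share of each gene in the summed FPKM of the 4 AG clade genes on the y axis, in percent, with 1 stacked bar per library and libraries grouped by genotype and tissue on the x axis. AG fills 84.4% and 84.9% of the bars of clf-28 shoots, and STK fills the largest share of every silique bar.

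Genes of the floral organ complexes rose beside AG in clf-28 shoots, while anther markers stayed near 0. The sum of the carpel and ovule markers overlapped its WT shoot range. Of 7 partner genes, which encode MADS-domain proteins that form complexes with AG clade proteins, 5 were called higher in shoots, where 6.40% of all genes were, and none lower, with a median log2 difference of 1.05 against 0.01 over all genes. SEP3, the partner that links most floral complexes, was 65.1 and 54.8 FPKM in clf-28 shoots and 11.5, 6.31 and 4.56 in WT shoots (2.93, limma adjusted p = 4.92e-05). SEP4 was 42.6 and 34.8 FPKM against 5.29, 5.88 and 6.98 (2.49, adjusted p = 4.43e-08). The mutant libraries lay above all WT libraries for both genes. AP3 and PI, which with AG specify stamens, rose by 1.05 and 1.20, to 1.73 and 1.94 FPKM for AP3 and 3.39 and 2.58 for PI, and SEP1 rose by 0.60 to 0.928 and 0.694 FPKM. AP3 was not called without clf-28 shoots replicate 2 (1.00, adjusted p = 0.0548), and without clf-28 shoots replicate 1 neither PI (1.06, adjusted p = 0.122) nor SEP1 (0.50, adjusted p = 0.138) was. With all 24 libraries or with a pseudocount of 5 FPKM 2 of the 7 were called. The sum of 6 anther markers was 0.371 and 0.466 FPKM in clf-28 shoots, 0.174 to 0.426 in WT shoots and 230 to 242 in WT inflorescences, with the tapetal regulator MS1 listed at 0 in all shoots. The sum of 6 carpel and ovule markers was 7.18 and 8.18 FPKM in clf-28 shoots and 5.48 to 7.25 in WT shoots. Most of this was SPT, a carpel gene also expressed in leaves, at 7.42 and 6.36 FPKM in clf-28 shoots and 5.46, 4.63 and 4.49 in WT shoots. SPT lay above all WT shoots, as 29.0% of all genes did, and was not called (0.43, limma adjusted p = 0.542). The rest of the sum was lower in both clf-28 shoots than in any WT shoot. Of the same list, CRC, a carpel gene, was 0 and 0.0986 FPKM in clf-28 shoots and INO, an ovule gene, was listed at 0.

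In the other tissues the partners moved less or downwards. In roots 1 of 7 was called higher, SEP4, with 2.66, 2.18 and 2.60 FPKM in clf-28 against 0.952, 0.557 and 0.507 in WT (1.06, adjusted p = 0.000111, and 0.488 with all 24 libraries). Of all genes 6.26% were called higher in roots. In inflorescences 1 of 7 was called higher, TT16, a MADS-box gene of the seed coat (0.61, adjusted p = 0.00521), where 1.71% of all genes were. TT16 was not called there with all 24 libraries (adjusted p = 0.944), a pseudocount of 0.1 FPKM (0.117) or the inflorescence libraries alone (0.136). In siliques 3 of 7 were called lower, TT16 (-0.97), AP3 (-1.08) and SEP2 (-0.36), and none higher, with a median of -0.36 against -0.05 over all genes, of which 16.4% were called lower. Neither AP3 (-2.65, adjusted p = 0.0857) nor SEP2 (-2.37, adjusted p = 0.256) was called with all 24 libraries, nor with a pseudocount of 0.1 FPKM (adjusted p = 0.182 and 0.535). SEP2 was not called with median-of-ratios scaling (-0.31), with quantile normalization (-0.21), or without WT siliques replicate 3 (-0.35), clf-28 siliques replicate 1 (-0.39) or clf-28 siliques replicate 2 (-0.33), and none of the 3 was called in the silique libraries alone. The median over the partners was 0.21 in roots and 0.03 in inflorescences, against -0.01 and 0.00 over all genes.

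Among 11 genes described as direct targets of AG clade proteins, 10 passed the filter on low values, and 3 were called higher in clf-28 shoots, where 6.40% of all genes were. DAD1, which encodes a lipase of jasmonate synthesis, was listed at 0 in all WT shoots and at 1.44 and 1.95 FPKM in clf-28 (1.43, limma adjusted p = 9.61e-06). ALC, a transcription factor gene of the fruit valve margin, was 29.2 and 23.8 FPKM in clf-28 shoots and 11.6, 8.61 and 7.16 in WT (1.46, adjusted p = 0.000727). FUL, the valve gene, was 3.41 and 2.65 FPKM against 0.287, 0.908 and 0.721 (1.31, adjusted p = 0.00336), not called without clf-28 shoots replicate 1 (1.17, adjusted p = 0.067), with a pseudocount of 5 FPKM (0.51, adjusted p = 0.171) or with all 24 libraries (2.01, adjusted p = 0.0578). SPL, a gene of sporogenesis that AG activates in flowers, was listed at 0 in WT shoots and at 0.0238 and 0 FPKM in clf-28 shoots. The median over the 10 targets in shoots was 0.04, against 0.01 over all genes. No target was called in roots.

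In inflorescences, where AG itself was not called, 2 of 10 targets were called lower, where 2.22% of all genes were. SPL went from 7.19, 6.30 and 5.54 FPKM in WT to 4.12, 4.15 and 3.11 in clf-28 (-0.62, limma adjusted p = 0.000935), and CRC from 51.1, 39.1 and 37.3 to 29.4, 25.3 and 26.0 (-0.63, adjusted p = 0.00233). Neither gene overlapped between genotypes, but the share of all genes that lay below WT without overlap in inflorescences was not computed. Both calls were lost with a pseudocount of 0.1 FPKM (-0.73 and -0.65, adjusted p = 0.113 and 0.256) and in the inflorescence libraries alone (adjusted p = 0.237 and 0.232). The sum of the anther markers fell beside SPL, at 104 to 145 FPKM in clf-28 inflorescences against 230 to 242 in WT, and its part in the SPL value was not tested. In siliques DAD1 (0.90) and SPT (1.38), a carpel gene, were called higher, and VDD (-1.61), a gene of the embryo sac and a target of STK, and BAN (-0.92), a seed coat gene that STK represses, were called lower, so 2 of 10 targets each way, where 12.2% of all genes were called higher and 16.4% lower. VDD was 1.40 and 0.868 FPKM in clf-28 siliques and 5.31, 5.11 and 6.03 in WT. BAN was not called in 10 of its 16 alternatives, among them leaving out WT siliques replicate 2 or 3 or either clf-28 silique library (-0.96 to -0.74), and SPT was not called without clf-28 siliques replicate 1 (1.28, adjusted p = 0.061), with all 24 libraries (0.82, adjusted p = 0.256) or in the silique libraries alone (adjusted p = 0.111).

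**Figure D4:**
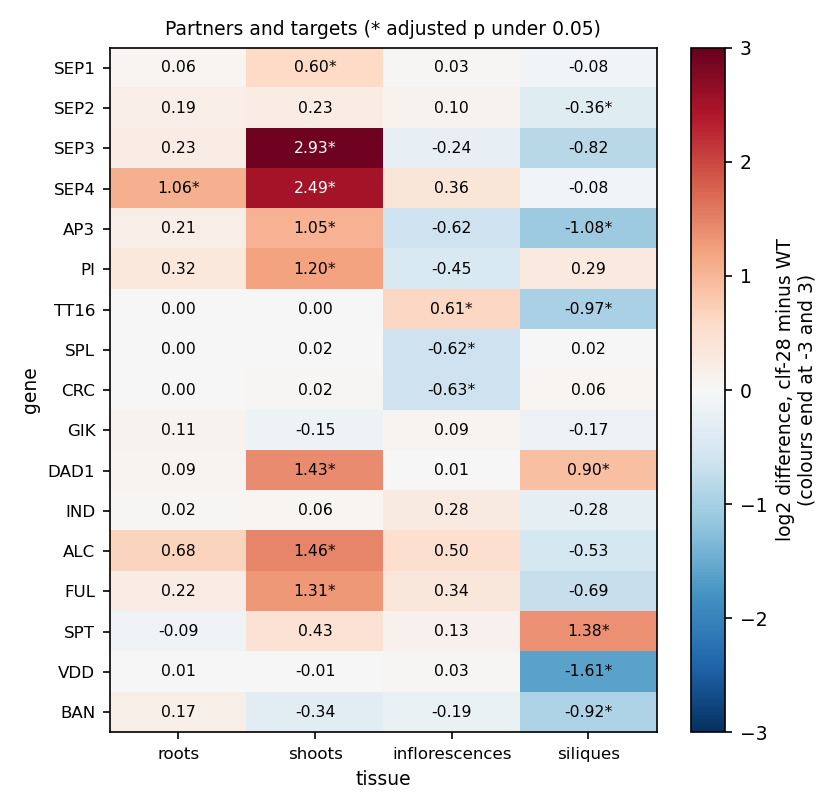
Difference of log2(FPKM + 1) between clf-28 and WT for the 7 partner genes (SEP1 to TT16) and the 10 tested target genes (SPL to BAN), 1 gene per line and 1 tissue per column, with red for higher in clf-28, blue for lower and a star for a limma adjusted p under 0.05. In the shoots column 5 partners and 3 targets carry a star, all higher.

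Known repressors of AG were for the most part not called. Of 15 genes 14 were tested. LUG, a co-repressor of AG, was called higher in roots (0.58, limma adjusted p = 0.00822, and 0.0624 with all 24 libraries). It was also called higher in siliques (0.53, adjusted p = 0.0114), a result that was not called without WT siliques replicate 3 (0.45) or clf-28 siliques replicate 1 (0.40). AGL24, a MADS-box gene of the floral transition, was called higher in shoots (1.23, adjusted p = 0.0216) and lost its call without clf-28 shoots replicate 1 (1.10) or replicate 2 (1.36), with the sign turned with all 24 libraries (-0.10). AP1, which represses AG in young flowers, fell by 1.10 in inflorescences (adjusted p = 0.00536) and by 1.17 in siliques (adjusted p = 0.00125), and its calls were lost in the libraries of either tissue alone. In siliques SVP fell by 1.09 (with all 24 libraries 0.53, not called), and SEU and BPC1 rose by 0.44 and 0.47. SEU was not called without either clf-28 silique library or WT siliques replicate 1 or 3 (0.26 to 0.47), and BPC1 was not called with all 24 libraries (0.90, adjusted p = 0.0618) or without either clf-28 silique library or WT siliques replicate 2 or 3 (0.36 to 0.59). Called in shoots was thus 1 of 14 repressors, AGL24, where 6.40% of all genes were called higher. The median over the list was -0.01 in shoots against 0.01 over all genes. Of the 14, 1 was called higher in roots, 1 lower in inflorescences, and 3 higher and 2 lower in siliques. The shares of all genes were 6.26%, 2.22%, 12.2% and 16.4% in that order, and these counts are not read as a result about the repressors. AP2, which keeps AG out of the outer floral whorls, averaged 16.2 FPKM in WT shoots and 15.2 in clf-28 shoots. Of 8 activator genes 5 had a line of their own, and 1 call was made, WUS in inflorescences, where 2.22% of all genes were called lower. WUS fell there by 0.87 (adjusted p = 0.00597) and was not called with a pseudocount of 0.1 FPKM (-0.95) or in those libraries alone. LFY stood at 0.124 FPKM on average in WT shoots and 0.398 in clf-28 shoots and was not called.

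The CLF transcript itself was not called in roots or shoots. It was 8.09, 13.8 and 14.2 FPKM in WT roots and 7.76, 7.42 and 8.09 in clf-28 roots (-0.54, limma adjusted p = 0.108), and without WT roots replicate 1 it was called lower (-0.78, adjusted p = 0.00823). In shoots it was 8.84, 8.33 and 6.93 FPKM in WT and 7.93 and 6.81 in clf-28 (-0.11, adjusted p = 0.902). It was called higher in clf-28 inflorescences (0.92, adjusted p = 0.0112) and siliques (1.16, adjusted p = 0.000803). When clf-28 inflorescences replicate 3 was left out, CLF was not called there (0.77, adjusted p = 0.0771). Neither call was made with all 24 libraries (adjusted p = 0.189 and 0.0673) or in each tissue alone (0.15 and 0.0595). A level per gene does not resolve the lesion of an allele, and the genotype is therefore not checked by them. None of the 7 other Polycomb genes examined (SWN, EMF1, EMF2, VRN2, FIE, MSI1 and LHP1) was called in any tissue.

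The rise of AG in shoots was not shared by the gene directly downstream of it. AT4G18970, whose annotated end nearest to AG lies 182 bases downstream of AG, was 64.2, 82.6 and 82.6 FPKM in WT shoots and 65.7 and 60.7 in clf-28 shoots (-0.26, limma adjusted p = 0.492). In siliques it fell as AG did, from 53.9, 86.7 and 87.7 FPKM to 26.9 and 25.2 (-1.48, adjusted p = 3.57e-05). AT4G18950, 4439 bases upstream of AG, was called higher in roots (0.71, adjusted p = 0.0172) and shoots (0.72, adjusted p = 0.0295). Its root call was lost without WT roots replicate 2 (0.67) or any 1 of the 3 clf-28 root libraries (0.71 to 0.72), and its shoot call without any 1 of the 5 shoot libraries (0.68 to 0.76). AT4G18940, 8960 bases upstream, fell by 0.56 in roots and rose by 0.75 in siliques. Neither AT4G18940 call was made with all 24 libraries (adjusted p = 0.0657 and 0.0546), nor was the root call with a pseudocount of 0.1 FPKM (-0.78, adjusted p = 0.243). Both AT4G18950 calls ended with all 24 libraries (adjusted p = 0.347 and 0.632).

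Around SHP1 and SHP2 some annotated genes overlap the members. AT2G42835, a long non-coding RNA gene that the annotation places antisense to SHP2 with an overlap of 1756 bases, rose in shoots from 0.259, 0.0655 and 0.0959 FPKM in WT to 2.20 and 2.46 in clf-28 (1.55, adjusted p = 7.35e-05). It was also called in inflorescences (0.69, adjusted p = 0.0412), a call lost in 10 of 17 alternatives, among them the fits without WT inflorescences replicate 1 (0.44) or replicate 3 (0.75) or any 1 clf-28 inflorescence library (0.67 to 0.71). GAUT15, which overlaps SHP1 by 447 bases and lies within the deposited SHP1 locus, rose in roots from 2.79, 4.96 and 5.36 FPKM to 12.96, 14.1 and 13.2 (1.46, adjusted p = 3.43e-05), where SHP1 was not called. The libraries are strand-specific, but whether the quantification used the strand is not given in the sources used here, so reads of SHP2 and its antisense partner, and of other overlapping pairs, cannot be told apart. Of 16 neighbours, the nearest 2 on each side of each member, 13 were tested. Called were 2 higher and 1 lower in roots, 2 higher in shoots, 1 higher in inflorescences, and 2 higher and 2 lower in siliques. Over all genes the shares called were 6.26% higher and 2.51% lower in roots, 6.40% higher in shoots, 1.71% higher in inflorescences, and 12.2% higher and 16.4% lower in siliques, so in siliques 4 of 13 neighbours is near the share of all genes. The silique calls of PDF1 near SHP2 (1.63) and of AT4G09950, which overlaps STK by 186 bases (-0.91), were each lost in the silique libraries alone. PDF1 lost its call without WT siliques replicate 2 (1.27) or 3 (1.36) or clf-28 siliques replicate 1 (1.58) or 2 (1.67), and AT4G09950 without WT siliques replicate 2 (-0.77) or clf-28 siliques replicate 1 (-0.83) and with all 24 libraries (-0.64, adjusted p = 0.15).

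**Figure D5:**
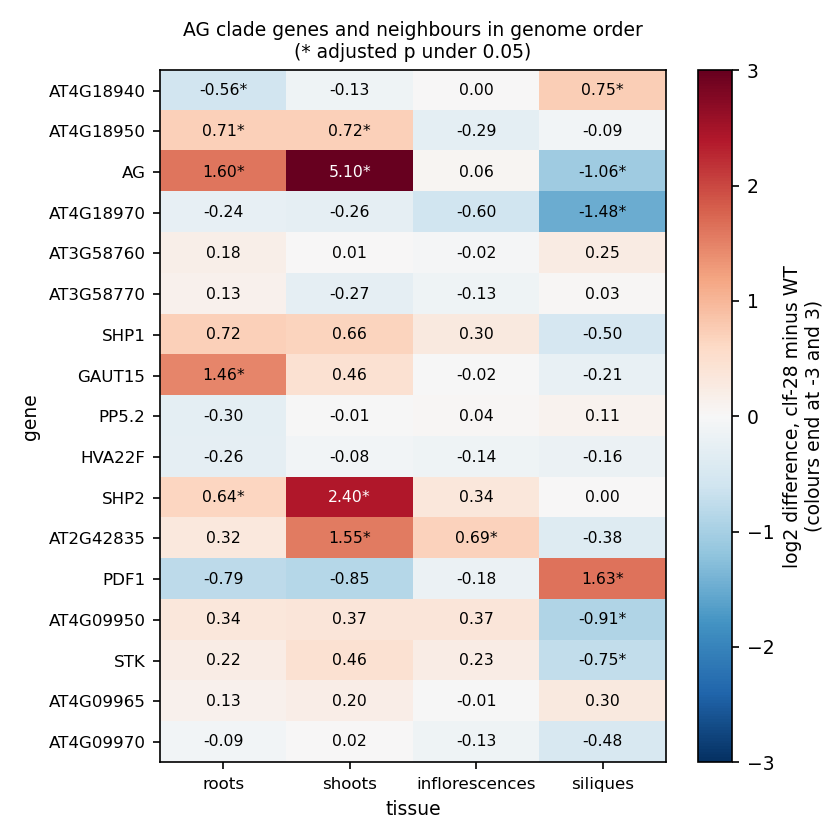
Difference of log2(FPKM + 1) between clf-28 and WT for the AG clade genes and their tested neighbours, listed in genome order around each member, 1 tissue per column, with red for higher in clf-28, blue for lower and a star for a limma adjusted p under 0.05. AG at 5.10 in shoots stands next to AT4G18970 at -0.26, and SHP2 at 2.40 next to its antisense gene AT2G42835 at 1.55.

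The genes whose levels ran most like those of each member were ranked by the Pearson correlation of log2(FPKM + 1) over the 22 libraries, among the 24278 genes tested. The points share tissues, so a high value is reached by any gene with a similar tissue pattern. For AG they were AT5G61100 (0.970), MBD11, a methyl-CpG-binding domain gene (0.968), and GATA13, a GATA transcription factor gene (0.952). For SHP1 the first was the member STK (0.993), followed by AT5G22200 (0.992) and AT2G24693 (0.989). For STK they were AT5G22200 (0.996), LCR50 (0.994), a gene of a small cysteine-rich protein, and AT5G51950 (0.994). For SHP2 they were AT5G60140 (0.991), CBL5 (0.987), a calcineurin B-like gene, and a line that merges AT4G17470 and AT4G17480 (0.982). SHP1 and STK thus shared AT5G22200, while AG and SHP2, the genes called higher in clf-28 shoots, shared none of their first 3.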

How the data were processed

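RNA was measured in 24 libraries. Per the labels the authors used TopHat, Cufflinks and Cuffdiff with the TAIR10 build, with versions and the use of strand not given in the sources used here. The deposited table holds FPKM per library, scaled by the authors to transcript length and library size. Its 48 columns of confidence bounds were not used. Read depth is unknown and no counting interval can be given. The FPKM of a library summed to between 849519 and 1334840, and this sum is not a depth. Lines with a failed or capped value (61) were left out.

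The filter on low values asked for 1 FPKM in no fewer than 3 libraries and left 24278 genes. Their log2(FPKM + 1) values were fitted with limma 3.58.1 under R 4.3.3, as 1 model that gave each group its mean, with an intensity trend, a robust prior and 14 residual degrees of freedom. A difference on this scale understates the change of low genes. Tests were two-sided, with Benjamini-Hochberg adjustment over all genes tested and a threshold of 0.05. The script was tested on simulated data. Alternatives were other pseudocounts, filters and scalings, a replicate block, no trend, single tissues, and leaving out libraries, which kept the same set of genes. Deviations of same-numbered libraries correlated over 0.1 in all 3 pairs between WT roots and WT inflorescences (0.144 to 0.297) and between WT shoots and WT inflorescences (0.162 to 0.266), so by the correlations alone the numbers pair these WT tissues, and the block left the calls over WT pairs at 20.

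Sequences and neighbours came from RefSeq's TAIR10.1. Of 29077 single-gene lines found in it, 29076 overlapped the annotated position. Genes beside the members were named where a list (partners, repressors, Polycomb, activators, targets) or a neighbour of a member passed the test, at most 6 per list and tissue by smallest p. CLF was named in every tissue, with the 3 most alike genes per member. The members and lists were chosen with earlier results of these data known.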

Additional observations from a re-analysis of the deposited data

Results flagged for a closer look

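Results are listed here because the genotype difference of a gene differed between tissues by a test of that difference. By the interaction F test in limma this held for AG (adjusted p = 5.79e-09), SHP2 (adjusted p = 1.85e-06) and STK (adjusted p = 0.00392). The AG difference ran from 5.10 in shoots to -1.06 in siliques on the log2 scale, and mutant and WT libraries did not overlap in either tissue. The SHP2 difference ran from 2.40 in shoots to 0.00 in siliques. The STK difference ran from 0.46 in shoots to -0.75 in siliques. SHP1 was not called by the F test, but its genotype difference in siliques differed from that in roots (-1.23, adjusted p = 0.025) and from that in shoots (-1.17, adjusted p = 0.0461), calls that were lost in 5 and 17 of 22 fits that left out 1 library each.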

How the results depend on the processing

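The calls of AG and SHP2 in shoots held under all 16 alternatives run for each. The counts of members called moved as follows. With all 24 libraries as labelled the count was 1 in roots, 0 in siliques, 2 in the interaction, 16 of 24 over the WT tissue pairs and 12 of 24 over the clf-28 pairs. It was 0 in roots with a pseudocount of 5 FPKM, 4 in shoots and 1 in siliques with a pseudocount of 0.1 FPKM, 0 in siliques with the silique libraries alone, and 1 in inflorescences (SHP1) without the 4 WT libraries of replicate 1. It was 3 in roots with a pseudocount of 0.1 FPKM, 3 in roots alone and in shoots alone, and 3 in roots, shoots and siliques without the 4 WT libraries, with SHP1 added each time. Leaving out 1 library at a time gave 2 to 2 in roots, 2 to 2 in shoots, 0 to 1 in inflorescences, 1 to 2 in siliques, 3 to 4 in the interaction, 19 to 20 over WT pairs and 20 to 21 over clf-28 pairs. Signs turned for values near 0 and where the left-out libraries returned. AG in inflorescences ran from -0.034 (without clf-28 inflorescences replicate 1) to 0.13 over the fits without 1 library. SHP2 in siliques was -1.25 with all 24 libraries, -0.0011 with the replicate block, -0.029 without WT siliques replicate 1 and also without all 4 WT libraries of replicate 1, -0.0056 without WT siliques replicate 2, and from -0.23 to 0.23 without either clf-28 silique library. With all 24 libraries AGL24 in shoots was -0.10, CLF in shoots 0.16 and SVP in siliques 0.53. The causes were not tested.

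In roots and inflorescences replicate numbers did not pair WT with clf-28. Deviations of same-numbered WT and clf-28 libraries correlated at 0.00494 to 0.0755 in roots and at -0.214 to -0.0316 in inflorescences. Shoots and siliques were not checked in this way. With the replicate block the counts of members called stayed at 2, 2, 0 and 2 in the 4 tissues, and of the named genes BPC1 in siliques lost its call (0.44, adjusted p = 0.0613), as did SHP1 between siliques and shoots (-1.17, adjusted p = 0.0613).

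The number of all genes called, 2131 in roots, 2541 in shoots, 955 in inflorescences and 6933 in siliques, moved with the libraries. With all 24 it was 1013, 1320, 283 and 3956. Without the 4 WT libraries of replicate 1 it was 6117, 6453, 6409 and 12116. In each tissue alone it was 2664, 3725, 49 and 1045. With a pseudocount of 0.1 FPKM it was 453 in inflorescences. Leaving out 1 library gave 1402 to 2577, 923 to 1972, 481 to 2691 and 4086 to 8826. Quantile normalization moved the split of higher and lower calls in roots from 1521 and 610 to 1434 and 1186, and median-of-ratios scaling in shoots from 1553 and 988 to 1400 and 1352. Depth is unknown, and the levels under 1 FPKM in WT roots and shoots are the least certain.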
